A study of Homo sapiens with 4 samples.

Results

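Genes that mark epithelial or mesenchymal identity were followed, 10 in all: CDH1 and EPCAM on the epithelial side, CDH2, VIM and FN1 on the mesenchymal side, and the transcription factors ZEB1, ZEB2, SNAI1, SNAI2 and TWIST1. They were taken by name, each through its brightest probe set that carries a single gene symbol, and all 10 of the 10 were measured, out of 18417 genes on the array. The cells were MiaPaCa2, an established line from a human pancreatic ductal carcinoma, kept for 24 h in either vehicle, on 2 arrays, or 50 µM LY101-4B, on another 2. LY101-4B is a code name for a compound that the series presents as an inhibitor of E2F, the transcription factors that drive entry into S phase. A treatment text attached to all of the samples names LY101-4D at 25 µM instead. The titles, agent labels and design text, which give LY101-4B at 50 µM, were followed. The design calls the samples of a group biological replicates, and nothing says whether they came from separate cultures, so the p-values measure the spread between these samples only. A single line, dose and time were measured.

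Epithelial cells are held together by E-cadherin, the product of CDH1, whose cytoplasmic tail binds catenins and through them the actin cytoskeleton. In the epithelial-mesenchymal transition, factors of the ZEB, SNAI and TWIST families bind E-box motifs, recruit corepressors and shut off epithelial genes, while vimentin, fibronectin and N-cadherin come up. In pancreatic ductal carcinoma this switch separates epithelial from quasi-mesenchymal tumours and lines, and MiaPaCa2 is usually counted among the latter.

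None of the 10 identity genes passed the threshold between LY101-4B and vehicle arrays. By limma, 0 were called higher and 0 lower at an adjusted p under 0.05, and 0 had an unadjusted p under 0.05. Over all tested probe sets 19.6% were called, 9.10% higher and 10.5% lower, and 32.2% had an unadjusted p under 0.05. The log2 differences of the 10 genes (mean of the LY101-4B arrays less that of the vehicle arrays) ran from -0.25 to 0.23 with a median of -0.02, beside a median of 0.00 over all genes. In 8 of the 10 the difference was no larger than the wider of the gaps between replicate arrays. The same share over all probe sets was not computed, so this count does not set these genes apart. The values below are log2 values after RMA, which subtracts background, equalises the arrays and summarises the probes of a probe set, and 1 unit is 2-fold. The p-values come from limma, a linear model that shares the spread over probe sets, adjusted over all of those tested; SE is its standard error. In bulk RNA, fewer cells with a transcript and less of it per cell cannot be told apart.

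**Figure D1:**
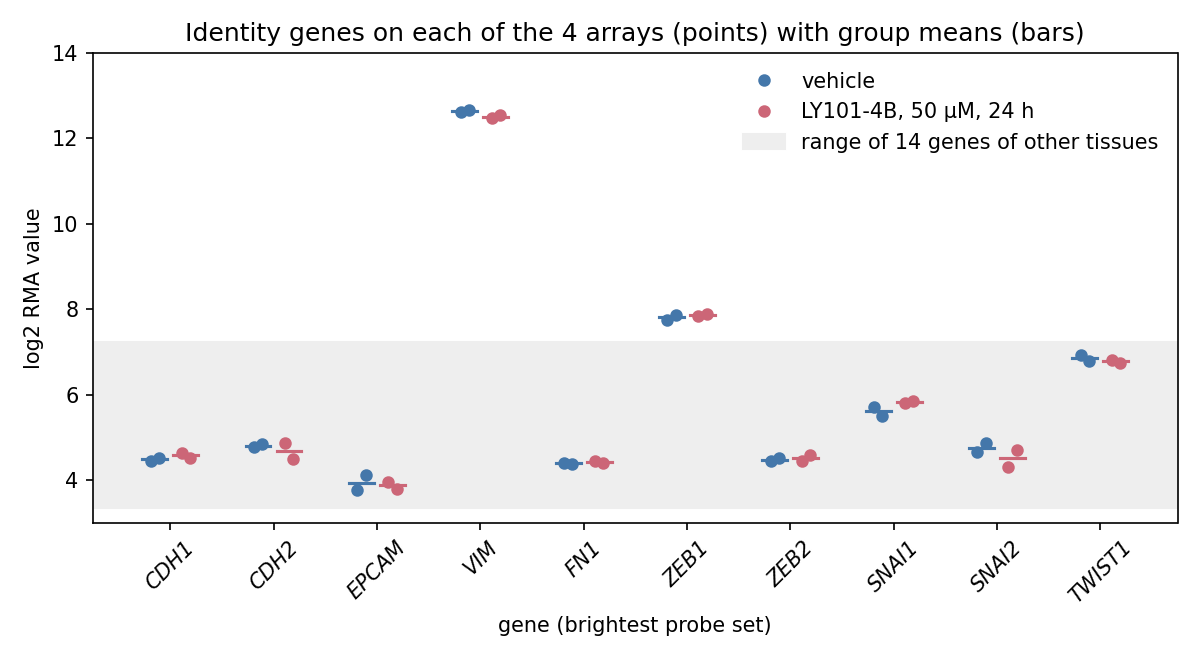
Log2 RMA values of the 10 identity genes (vertical axis) on the 2 vehicle and 2 LY101-4B arrays (points), with the mean of each group as a bar and the range of 14 genes of other tissues in grey. VIM and ZEB1 lie above the grey range on every array, and the groups of each gene lie close together.

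What a value says about transcript depends on its height, because no detection calls were used here and probe sets differ in how strongly they bind. As a guide, 14 genes of other tissues, such as albumin and the leukocyte gene PTPRC, gave values between 3.36 and 7.23, and the array medians lay between 5.88 and 5.97. VIM and ZEB1 were above that range on every array; the other 8 genes were inside it on every array. The upper end was set by MBP, the gene of myelin basic protein, alone. Without MBP the other 13 genes reached 6.38, and TWIST1 was then also above the range on every array. A level inside this range cannot, by itself, be told from the signal of a gene that is not expressed. Among the 12371 tested probe sets whose values did not exceed this range on any array, 6.53% were called. By brightness, 5.96% of the dimmer 50% of probe sets were called and 33.3% of the brighter 50%, and 3 of the identity genes (VIM, ZEB1 and TWIST1) belong to the brighter 50%.

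The epithelial adhesion gene CDH1 read 4.44 and 4.53 on the vehicle arrays and 4.63 and 4.53 on the LY101-4B arrays. The groups overlapped at 4.53, and all 4 values were dim. The difference was 0.09 ± 0.09 log2 units (SE; 95% interval -0.14 to 0.32; limma adjusted p 0.566). EPCAM, which encodes an epithelial surface adhesion molecule, read 3.77 and 4.12 with vehicle and 3.96 and 3.80 with LY101-4B. The vehicle arrays differed by 0.34, more than the group means did, and the LY101-4B values lay between them. The difference was -0.06 ± 0.14 (95% interval -0.41 to 0.28; adjusted p 0.813). A dimmer EPCAM probe set, at 3.42 and 2.98 with vehicle and 3.04 and 3.05 with LY101-4B, did not pass either (-0.15 ± 0.15, adjusted p 0.573).

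CDH2, the gene of N-cadherin, which replaces E-cadherin in many mesenchymal cells, read 4.77 and 4.84 with vehicle and 4.88 and 4.50 with LY101-4B. The first LY101-4B array was the highest of the 4 and the second the lowest. The difference was -0.11 ± 0.14 log2 units (95% interval -0.46 to 0.24; adjusted p 0.665), and it was 0.08 without LY101-4B replicate 2. For neither cadherin could expression be shown at this brightness, so a switch between them could not be read from these arrays.

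VIM, which encodes the intermediate filament protein vimentin, was bright: 12.63 and 12.66 with vehicle and 12.47 and 12.55 with LY101-4B. Both LY101-4B arrays were below both vehicle arrays. The difference was -0.14 ± 0.09 log2 units, 1.10-fold lower (95% interval -0.35 to 0.08; limma adjusted p 0.356), and it did not pass. With a variance prior that follows signal intensity it did, at the same size (adjusted p 0.0483), and over all alternatives the adjusted p ran from 0.0483 to 0.759. Under cyclic loess scaling the difference was -0.04. FN1, the gene of fibronectin, an extracellular matrix protein, stayed dim at 4.41 and 4.38 with vehicle and 4.44 and 4.41 with LY101-4B (0.03 ± 0.08; 95% interval -0.18 to 0.24; adjusted p 0.865). Of the mesenchymal genes on the list, VIM was thus the only one measured above the range of genes of other tissues.

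ZEB1, a zinc finger repressor of CDH1 and of the miR-200 genes, was the only one of the 5 transcription factor genes above the full range. It read 7.75 and 7.87 with vehicle and 7.84 and 7.88 with LY101-4B, and the groups overlapped. The difference was 0.05 ± 0.09 log2 units (95% interval -0.18 to 0.28; adjusted p 0.776), or -0.02 with each array centred on its median. ZEB2, its paralog, read 4.45 and 4.52 with vehicle and 4.46 and 4.60 with LY101-4B (0.04 ± 0.09; 95% interval -0.19 to 0.28; adjusted p 0.802; -0.02 with median centring). A still dimmer ZEB2 probe set, between 2.39 and 3.10, gave 0.31 ± 0.19 (adjusted p 0.339). The interval of that probe set ran from -0.16 to 0.78, so the narrower interval of ZEB2 holds for its brighter probe set only. Both ZEB2 probe sets were at a brightness where a change in transcript may not show.

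ZEB, SNAI and TWIST factors read E-boxes, and ZEB and SNAI proteins prefer the form CACCTG, or CAGGTG on the other strand. ZEB1 is the factor gene with a clear signal here, so the ZEB1 start region with the most such letters is shown, with each match in capitals. It spans chr10:31318966-31319265 on the plus strand (GRCh38.p14, RefSeq), from 250 bases before to 50 after an annotated start.
ZEB1: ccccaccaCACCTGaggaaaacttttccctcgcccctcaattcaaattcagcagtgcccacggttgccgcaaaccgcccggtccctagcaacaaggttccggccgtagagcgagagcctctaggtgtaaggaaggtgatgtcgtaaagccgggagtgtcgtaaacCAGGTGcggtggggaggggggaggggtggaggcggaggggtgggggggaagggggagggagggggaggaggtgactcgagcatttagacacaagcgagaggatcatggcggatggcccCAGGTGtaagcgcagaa
The 3 matches begin 242 and 85 bases before the start and 33 bases after it. Of 7 annotated ZEB1 start regions 2 held the motif, and the start regions of CDH2, VIM, FN1 and ZEB2 did not. Those of CDH1, EPCAM, SNAI1, SNAI2 and TWIST1 were not searched, so nothing is said of them. For comparison, 20.6% of 35116 start regions of the same length in the RefSeq table held it on either strand. The form of the E2F motif searched, TTTGGCGC, TTTGCCGC, TTTCGCGC or TTTCCCGC on either strand, was in 0 of the 12 start regions of these 5 genes and in 3.31% of all. A match or its lack describes these letters only.

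SNAI1 and SNAI2 encode the zinc finger repressors Snail and Slug, of which Snail is a short-lived protein that signalling pathways induce. SNAI1 had the smallest p of the 10 genes. It read 5.72 and 5.50 with vehicle and 5.81 and 5.85 with LY101-4B, so that both LY101-4B arrays were above both vehicle arrays. The difference was 0.23 ± 0.11 log2 units, 1.17-fold higher (95% interval -0.04 to 0.49; unadjusted p 0.0785, limma adjusted p 0.211). SNAI2 had the widest gap between replicates of a treatment: it read 4.65 and 4.87 with vehicle and 4.31 and 4.71 with LY101-4B. The groups overlapped, and the gap of 0.40 between the LY101-4B arrays exceeded the difference of -0.25 ± 0.16 (95% interval -0.64 to 0.14; adjusted p 0.352). Without LY101-4B replicate 2 the difference was -0.45 (adjusted p 0.0815), and without LY101-4B replicate 1 it was -0.05. TWIST1, a basic helix-loop-helix factor that works as a dimer with E proteins, read 6.92 and 6.80 with vehicle and 6.82 and 6.74 with LY101-4B. Its values were the brightest inside the range of genes of other tissues, and above that range without MBP. The groups overlapped (-0.08 ± 0.09; 95% interval -0.31 to 0.15; adjusted p 0.618).

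**Figure D2:**
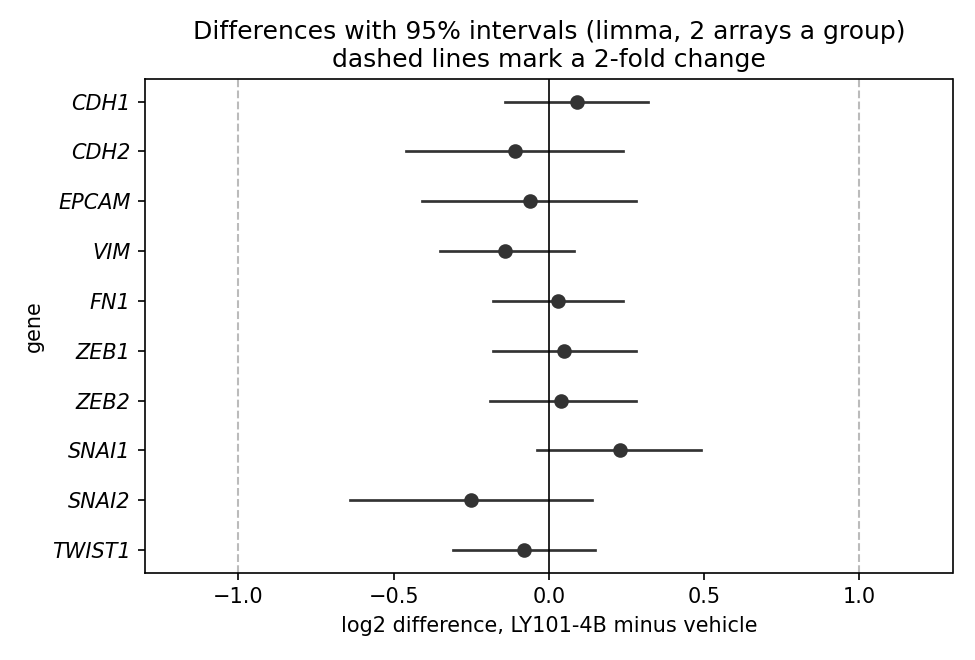
Log2 difference between LY101-4B and vehicle (horizontal axis) for each identity gene, with the 95% interval from limma over 2 arrays a group as a line; dashed lines mark a 2-fold change. All 10 intervals include 0 and lie within 1 log2 unit of it; SNAI2 has the widest reach, down to -0.64.

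Precision was enough to bound these differences. All 10 of the 95% intervals lay within 1 log2 unit of 0, and 9 lay within 0.5. The farthest bound was that of SNAI2, a 1.56-fold fall, and the farthest upward bound was that of SNAI1, a 1.40-fold rise. For VIM the interval ran from a 1.28-fold fall to a 1.06-fold rise and for ZEB1 from a 1.13-fold fall to a 1.21-fold rise. For the dim genes the bounds hold for the array value, which RMA compresses near background, and not for the transcript. The arrays of a group did not overlap with the other group in 2 of the 10 genes (VIM and SNAI1), against 58.0% of all tested probe sets. The 3 genes whose 4 values, as deviations from the vehicle mean, lay closest to those of SNAI1 were OR6F1, KCTD2 and S100P, at Euclidean distances of 0.0157, 0.027 and 0.0277 log2 units. None of these passed (limma adjusted p 0.198, 0.22 and 0.22). They were picked because their values match those of SNAI1, so their differences and p-values had to be close to its own. Their not passing therefore adds nothing to the SNAI1 result. Such a search returns the closest genes whether or not they are related to SNAI1.

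**Figure D3:**
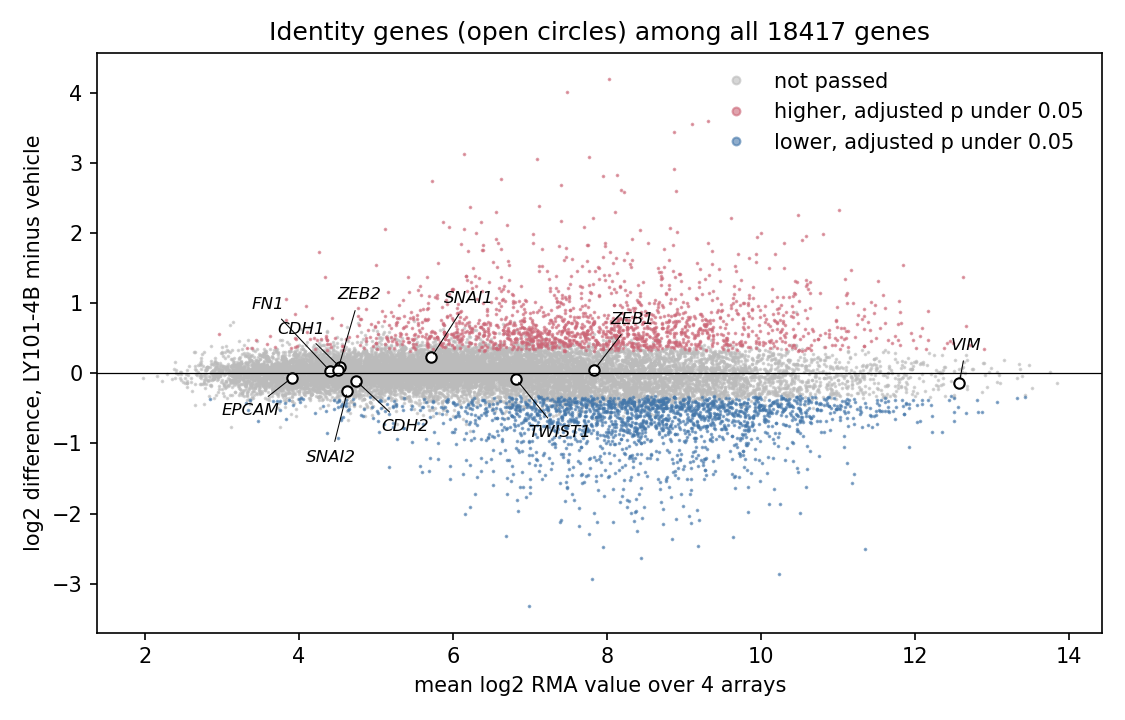
Log2 difference between LY101-4B and vehicle (vertical axis) against the mean log2 RMA value over the 4 arrays (horizontal axis) for 18417 genes; red and blue points passed limma's adjusted p of 0.05 and open circles are the identity genes. The open circles lie in the grey band around 0, and 7 of the 10 lie in the dimmer 50% of values.

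Of 33297 rows, 21214 probe sets with at least 1 gene symbol were tested; 1930 were called higher and 2236 lower. With each array centred on its median the split was 1528 higher and 2731 lower. Replicate correlations (r) across these probe sets were 0.997 for vehicle and 0.994 for LY101-4B. Of 10 pancreatic duct markers 9 were measured, of which 3 fell and 0 rose. KRT8 and KRT18, the keratins of simple epithelia, were bright (12.77 ± 0.02 and 12.94 ± 0.09 with vehicle, SD, n = 2) and KRT19 read 9.22 ± 0.09, while KRT7, another keratin of ducts, read 5.81 and 5.93, inside the range of genes of other tissues, as did MUC1, EPCAM, CDH1 and CFTR. The vehicle arrays thus held bright signal of 3 of the 4 keratins on the list beside dim CDH1 and EPCAM signal. With LY101-4B, KRT8 fell 1.78-fold and KRT18 1.48-fold (limma adjusted p 0.00371 and 0.0106), and SOX9, a transcription factor gene of duct cells, fell 1.35-fold from a vehicle mean of 8.41 (0.0369). For KRT18 the brighter of 2 probe sets was used. KRT19 (-0.09 ± 0.10) and KRT7 (0.21 ± 0.09) did not pass. Acinar markers (4 of 6 measured) lay between 4.08 and 6.96 and neuroendocrine markers (3 of 4) between 5.00 and 6.88, with 0 acinar markers called by limma (1 had an unadjusted p under 0.05). Of the neuroendocrine markers SYP, the gene of synaptophysin, was called higher, from a mean of 6.06 ± 0.09 with vehicle to 6.64 ± 0.11 with LY101-4B (SD, n = 2; 0.58 ± 0.10, SE; limma adjusted p 0.0148), all inside the range of genes of other tissues. The calls of KRT8, KRT18, SOX9 and SYP were not followed under the alternatives, so how far they depend on single arrays is not known. The mean of 9 fibroblast and stellate markers was 5.47 and 5.38 with vehicle and 5.49 and 5.43 with LY101-4B. Single values ran from 2.95 to 10.4, and 1 marker was called higher and 1 lower. These were COL1A2, which read 9.87 and 9.92 with vehicle, and COL3A1 (limma adjusted p 0.0167 and 0.0319). Endothelial markers (5 of 5 measured) stayed between 4.21 and 5.10, and of the leukocyte markers (4 of 5) PTPRC stayed between 3.36 and 3.56 while CD68, a lysosomal protein that other cells also make, read 7.93 to 8.21.

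Around the 10 genes, 11 lists of genes that act with them held 179 entries, of which 168 were measured. Over these lists 7 genes were higher and 27 lower. In total 20.2% were called, close to the 19.6% over all probe sets. The balance of directions was less alike, as 9.10% of all probe sets were higher and 10.5% lower, and this was not tested. The lists differed in brightness, and in how many of their genes were called. Calls among corepressors, splicing regulators, ID genes and cytoskeleton and surface genes were all falls, as was the 1 call among other transcription factors. The lists of epithelial regulators and of miR-200 hairpins held 0 calls. Of their measured genes 6 of 28 and 0 of 5 were in the brighter 50% of probe sets. All 13 corepressors and all 6 splicing regulators were in that brighter part. These differences between lists were not tested. Of the 34 called genes 5 were inside the range of genes of other tissues on every array (COL3A1, TAGLN, LTBP1, ACVR2A and BAMBI), and another 5 on some arrays (SUV39H1, EHMT2, SIAH1, SYNM and ENG). A size given for these 10 is that of the array value and not of the transcript. All 10 were above that range on at least 1 array when MBP was left out of it. ACVR2A, BAMBI and SYNM were outside the rule for named genes and are given to complete this count.

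**Figure D4:**
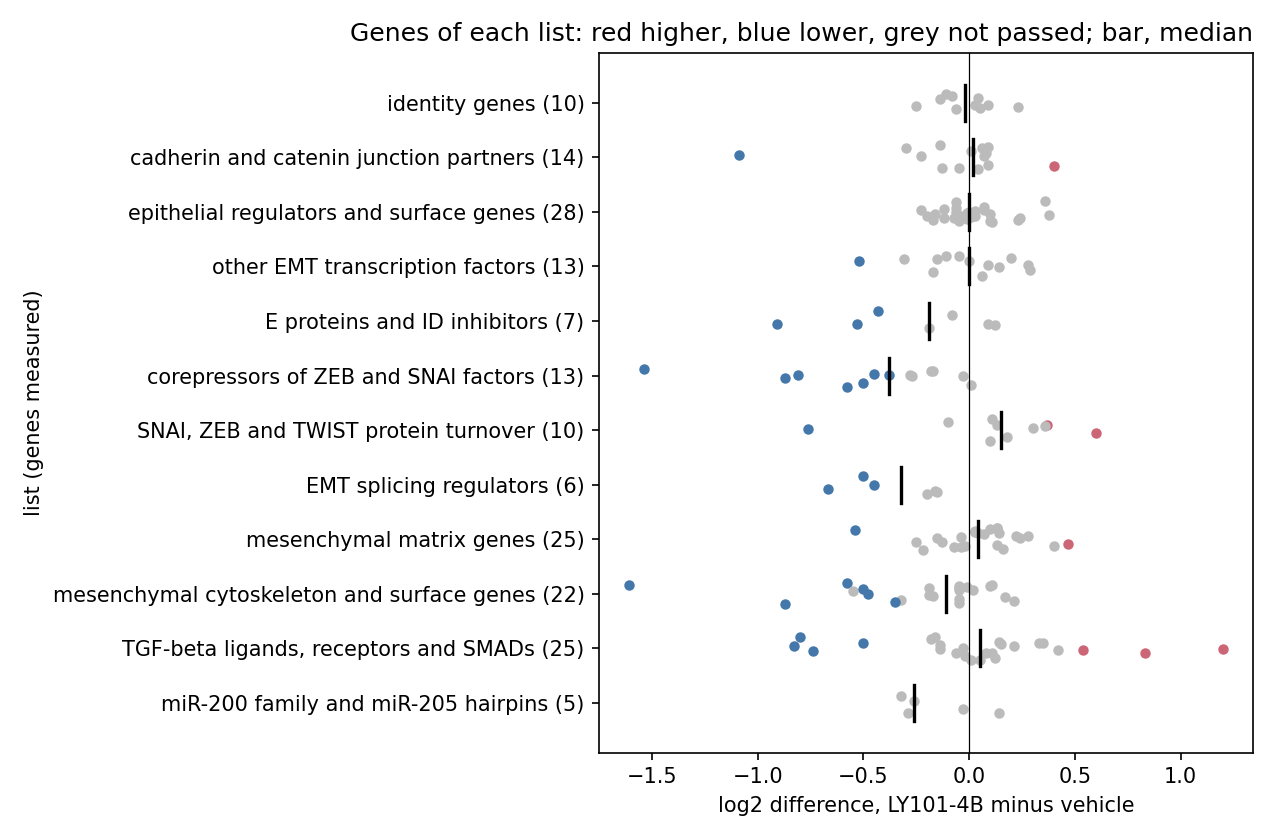
Log2 difference between LY101-4B and vehicle (horizontal axis) for each measured gene of the identity list and of 11 lists of related genes; red points passed as higher, blue as lower, grey did not pass, and the bar is the list's median. The corepressor list has 7 of 13 genes lower and a median of -0.38, whereas the identity genes stay between -0.25 and 0.23.

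The corepressors through which ZEB and SNAI factors silence promoters were all in the brighter 50% of probe sets, and 7 of 13 fell, 0 rose and 6 did not pass. Among all probe sets of the brighter 50%, 18.9% were called lower and 14.4% higher. The list's median was -0.38 log2 units, beside 0.00 over all genes. SUV39H1, a methyltransferase for histone H3 lysine 9, read 8.64 and 8.61 with vehicle and 7.10 and 7.08 with LY101-4B, a 2.90-fold fall (-1.54 ± 0.08, SE; limma adjusted p 0.000652). The replicates of each group were nearly equal and the groups far apart, with the LY101-4B values inside the range of genes of other tissues. EHMT2, the gene of the lysine methyltransferase G9a, fell 1.82-fold, and SMARCA4, the ATPase of SWI/SNF remodelling complexes, 1.76-fold (adjusted p 0.00367 and 0.00484). LOXL2, a lysyl oxidase described as a SNAI1 partner, fell 1.49-fold (adjusted p 0.00801), a call lost when the first (0.0607) or the second (0.0758) vehicle array was left out. Without vehicle replicate 1 the list had 3 falls, and also 3 without vehicle replicate 2. The ZEB corepressors CTBP1 (-0.18 ± 0.09) and CTBP2 (-0.17 ± 0.10) did not pass; they were picked with their values known.

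TWIST1 dimerises with E proteins, and ID proteins compete for the same partners. In this group 3 of 7 genes fell and 0 rose, with a median of -0.19. ID3 read 9.95 on both vehicle arrays and 9.01 and 9.07 with LY101-4B, a 1.88-fold fall (-0.91 ± 0.09; limma adjusted p 0.0021). ID1 fell 1.45-fold and ID2 1.35-fold (adjusted p 0.0215 and 0.0291). Both calls were lost when vehicle replicate 1 (0.101 and 0.2), vehicle replicate 2 (0.13 and 0.134) or the first LY101-4B array (0.0528 and 0.0766) was dropped, leaving 1 fall on the list each time. The E protein genes TCF3, TCF4 and TCF12 and the inhibitor gene ID4, the members that did not pass, lay between -0.19 and 0.12.

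Of the junction partners of E-cadherin 1 of 14 fell, 1 rose and 12 did not pass. VCL, the gene of vinculin, which links adhesion sites to actin, read 9.27 and 9.39 with vehicle and 8.17 and 8.31 with LY101-4B, a 2.13-fold fall (limma adjusted p 0.00196). CTNNA1, the gene of alpha-catenin, which joins the cadherin complex to actin, rose 1.32-fold (adjusted p 0.0278). This rise missed the threshold without any 1 of the arrays (adjusted p 0.0573 to 0.213), with median centring (0.0534) and over all rows (0.0765). In the list of epithelial regulators and surface genes, which holds ESRP2, OVOL1, GRHL2 and ELF3, 0 of 28 measured genes rose or fell by limma (1 had an unadjusted p under 0.05), with 6 of the 28 in the brighter 50% and a median of 0.00. The smallest p belonged to KLF4, an epithelial Krüppel-like factor, and to S100A14. KLF4 stood at 0.38 ± 0.12 log2 units (adjusted p 0.0858), and passed when only the brighter 50% of probe sets was tested (0.0327) and with the replicate number as a block (0.0417). S100A14 stood at -0.20 ± 0.09 (adjusted p 0.207).

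Among other transcription factors of the transition 1 of 13 fell and 0 rose. ETS1, an activator of matrix protease genes, went from 9.41 and 9.42 to 8.79 and 9.00, a 1.43-fold fall (limma adjusted p 0.0215), a call lost when the first vehicle array (0.119), the second (0.122) or LY101-4B replicate 1 (0.0521) was left out. The other 12, TWIST2, SNAI3, FOXC2 and PRRX1 among them, did not pass. Of 10 genes for the turnover of SNAI, ZEB and TWIST proteins, 2 rose, 1 fell and 7 did not pass. The brighter 50% of probe sets held 8 of these 10. The ubiquitin ligase gene SIAH1 rose 1.51-fold (adjusted p 0.00883; 0.0682 and 0.0665 without the first and without the second vehicle array), and GSK3B, the kinase that marks Snail for degradation, rose 1.29-fold (adjusted p 0.0363). This rise missed the threshold with any 1 array left out (0.0529 to 0.229), with median centring (0.0789) and over all rows (0.092). FBXO45, a ligase component for EMT factors, fell 1.69-fold (adjusted p 0.00394). Of 6 splicing regulators 3 fell and 0 rose: PTBP1 by 0.67 log2 units (adjusted p 0.00526), MBNL1 by 0.50 and SRSF1 by 0.45. All 6 were in the brighter 50% of probe sets, where 18.9% were called lower and 14.4% higher. MBNL1 and SRSF1 (adjusted p 0.018 and 0.0188) lost their calls when vehicle replicate 1 (0.0875 and 0.113) or vehicle replicate 2 (0.141 and 0.159) was dropped, and MBNL1 also with LY101-4B replicate 1 dropped (0.0551).

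In the list of cytoskeleton and surface genes 6 of 22 fell, 0 rose and 16 did not pass, and the median was -0.11. CAV1, the gene of the caveolar coat protein caveolin-1, fell most, from 9.59 and 9.63 to 7.85 and 8.14, which is 3.06-fold (-1.61 ± 0.12; limma adjusted p 0.00122). TAGLN, an actin-binding gene of smooth muscle and myofibroblasts, read 6.85 and 6.97 with vehicle and 5.99 and 6.09 with LY101-4B, and its array value fell by 0.87 ± 0.10 log2 units (adjusted p 0.00325). The tropomyosin gene TPM2 fell 1.49-fold and the receptor kinase gene AXL 1.41-fold. Dropping the first or the second vehicle array ended the calls of TPM2 (adjusted p 0.00853, then 0.0786 and 0.0599) and AXL (0.0177, then 0.0931 and 0.139), and dropping LY101-4B replicate 1 that of AXL (0.0535). Without either vehicle array 2 falls were left on this list. Of 25 matrix genes 1 rose, 1 fell and 23 did not pass, with a median of 0.04. The collagen gene COL1A2 rose 1.39-fold (adjusted p 0.0167; 0.139 and 0.102 without the first and without the second vehicle array). COL3A1 read 6.85 and 6.58 with vehicle and 6.09 and 6.25 with LY101-4B; its array value fell by 0.54 ± 0.12 log2 units (adjusted p 0.0319), and missed the threshold without vehicle replicate 1 (0.188) or either LY101-4B array (0.113 and 0.0531).

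TGF-beta is a strong inducer of the transition and acts through SMAD proteins on SNAI1 and ZEB1. Of 25 genes of this pathway 3 rose, 4 fell and 18 did not pass, with a median of 0.05. LTBP1, which stores latent TGF-beta in the matrix, read 5.50 and 5.31 with vehicle and 6.36 and 6.85 with LY101-4B, a rise of the array value by 1.20 ± 0.18 log2 units (limma adjusted p 0.00797). The receptor SMAD gene SMAD3 fell 1.74-fold and the co-receptor gene ENG, endoglin, 1.78-fold (adjusted p 0.00372 and 0.00286), while TGIF1, a corepressor of SMAD complexes, rose 1.78-fold (adjusted p 0.00368). These 4 genes kept their call under every alternative run. Without either vehicle array the list had 2 rises and 2 falls.

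The miR-200 family represses ZEB1 and ZEB2, and ZEB proteins repress the miR-200 genes, so the mature sequences are shown with the seed, bases 2 to 8, in capitals (RefSeq, GRCh38.p14, 5′ to 3′). A single base of the seed divides the family into miR-200b, miR-200c and miR-429 on one side and miR-200a and miR-141 on the other.
hsa-miR-200b-3p: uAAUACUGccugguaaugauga
hsa-miR-200c-3p: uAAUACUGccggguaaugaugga
hsa-miR-429: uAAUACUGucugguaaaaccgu
hsa-miR-200a-3p: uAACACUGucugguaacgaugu
hsa-miR-141-3p: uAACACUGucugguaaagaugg
The probe sets carry the symbols of the hairpin genes, and whether hairpins or mature forms gave their signal was not tested. All 5 measured hairpins were in the dimmer 50% of probe sets. By limma, 0 of 5 passed in either direction, and 2 had an unadjusted p under 0.05. The probe set of MIR200C read 5.10 and 5.07 with vehicle and 4.78 and 4.75 with LY101-4B, with both LY101-4B arrays lower (-0.32 ± 0.08; adjusted p 0.0513). That of MIR429 read 6.04 and 5.96 with vehicle and 5.75 and 5.66 with LY101-4B (-0.29 ± 0.09; adjusted p 0.077). Both passed with each array centred on its median (0.0309 and 0.0416) and under cyclic loess (0.034 and 0.0376). MIR200A, MIR200B and MIR141, given here so that all 5 are shown, stood at 0.14, -0.03 and -0.26. The genes of MIR200B, MIR200A and MIR429 lie together on chromosome 1 and those of MIR200C and MIR141 on chromosome 12.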

How the data were processed

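RNA from MiaPaCa2 cells was hybridised to Human Gene 1.0 ST arrays, 2 with vehicle and 2 with LY101-4B. The deposited table holds log2 values of probe sets, made by RMA per the submitters' processing notes; its software version and filters: not given in the sources used here. This method brings the arrays to nearly the same distribution and compresses low signals. Per the labels' protocols, RNA was labelled with a FlashTag Biotin HSR kit.

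Genes came from the platform annotation: 19460 probe sets had 1 symbol, 1754 several and 12083 none, and 0 symbols changed against RefSeq. A treatment-only model was fitted to all 21214 probe sets with a symbol (limma 3.58.1, R 4.3.3; 2 residual and 3.75 prior degrees of freedom), with 2-sided Benjamini-Hochberg adjusted p-values and a threshold of 0.05. The fit was tested on simulated data, with a spread drawn from its own variance prior. The differences added there were larger than those of any identity gene, so that test does not cover small differences. The members and lists were chosen with earlier results of these data known. The 10 members were named, with up to 4 called genes of each list by size of change, or, in lists with 0 calls, the 2 genes of smallest p, and the 3 genes closest in profile to the member with the smallest p. Array number limits the precision. Alternatives changed scaling, rows, variance model, probe set choice, replicate block and the arrays used. All table columns were mapped (0 were left over).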

Additional observations from a re-analysis of the deposited data

How the results depend on the processing

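For the 10 identity genes 0 were called under every alternative except the intensity trend, where 1 (VIM) was called lower. Uncalled differences changed sign for CDH2 (0.08; -0.30 to 0.08 with any 1 array left out) and ZEB2 (-0.02) without LY101-4B replicate 2, EPCAM without vehicle replicate 2 (0.11) or LY101-4B replicate 2 (0.02; -0.23 to 0.11 over the arrays), ZEB1 without vehicle replicate 1 (-0.02), and FN1 (-0.04), ZEB1 (-0.02) and ZEB2 (-0.02) with median centring. With any 1 array left out, between 755 and 1899 probe sets were called higher and between 811 and 2467 lower, and over the 11 lists 2 to 9 genes were higher and 11 to 26 lower. Over all 33297 rows the counts were 1162 and 1271, and 3 and 15 on the lists, where the adjustment covers more rows. With the brighter 50% of probe sets the lists had 11 genes higher. By list and over all alternatives, 3 to 8 corepressors, 2 to 8 cytoskeleton and surface genes, 1 to 3 ID genes, 1 to 3 splicing regulators, 2 to 4 TGF-beta genes, 0 to 2 other transcription factors, 1 to 2 junction partners, 0 to 1 matrix genes and 0 to 2 miR-200 hairpins were lower. Higher were 2 to 5 TGF-beta genes, 0 to 2 turnover genes, 0 to 2 matrix genes, 0 to 2 other transcription factors, 0 to 1 junction partners and 0 to 1 epithelial genes. Of the 26 called genes named, 13 kept the call in every alternative that tested them, and 13 lost it in at least 1. LTBP1 and TAGLN, both among those that kept it, were not tested with the brighter 50% of probe sets. Over all rows 10 of the 26 lost the call. A fit without 1 array rests on fewer arrays.

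The replicate numbers of the titles pair arrays by number only: deviations of same-numbered arrays correlated at 0.12 over 2 pairs. With the replicate block 2024 probe sets were higher and 2312 lower, 0 identity genes were called, and the lists had 8 higher and 26 lower. Signal inside the range of genes of other tissues limits 8 of the 10 identity genes, or 7 where MBP is left out of that range.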
